A study of Homo sapiens with 15 samples.

Results

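The transcripts of 2 kinds of condensate pellet were compared: pellets formed in cell extract after addition of the crowder polyethylene glycol (PEG), and pellets from the same extract with no addition (mock). The 3 PEG libraries and 3 mock libraries, numbered replicate 1 to 3 in the labels, were taken by their titles from 15 libraries in all. Of 57500 counted genes, 16612 reached 10 counts in 2 or more of the 3 libraries of all 5 conditions and were kept, and these genes were asked which functions set a crowder pellet apart, first with and then without the part that follows transcript length.

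Cytosolic extracts (CEs) were made from U2OS cells, a human osteosarcoma cell line, and used in in vitro translation reactions that ran for 2 h at 37 °C. The PEG reactions held 1% PEG, the mock reactions were untreated, and the other reactions held 250 nM dsRNA or 2 µg/ml silvestrol, a translation initiation inhibitor. Reactions were spun at 14000 g for 10 min, the pellets were washed, and poly(A)-selected RNA was sequenced, whereas input was extract that had not been pelleted. Extracts of all groups came from cells labelled wild type, while the study describes its condensates by YFP-G3BP1, and the labels name no tagged protein. As a check of the labelled cell, 5 of 6 mesenchymal and osteosarcoma markers passed the count filter, with summed levels of 1804 to 2051 CPM in mock and 3243 to 3912 CPM in PEG, while hepatocyte and leukocyte markers summed to at most 1.14 and 0.429 CPM in any mock or PEG library. Epithelial markers, which such a line can express weakly, summed to 7.31 to 9.05 CPM in mock and 13.4 to 18.8 CPM in PEG.

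PEG is an inert polymer that occupies volume and so favours the separation of proteins and RNA into a dense phase, without acting on any one pathway. Stress granules (SGs), in contrast, assemble when translation initiation stops, around G3BP proteins and the untranslated mRNAs they bind, and long mRNAs are known to be favoured in them. A pellet spun from an extract that received nothing can hold any RNA bound to dense material, such as remnants of organelles, cytoskeleton or membranes.

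The libraries held 32477292 to 39903656 counts in mock and 15341973 to 25675182 in PEG, so the PEG pellets were the more shallowly sequenced group. Levels are given as CPM, counts scaled by TMM to a common library total, and changes as the log2 fold change of PEG over mock, with an adjusted p under 0.05 in edgeR's quasi-likelihood test as the threshold for a call. All values are shares of the RNA in a pellet: less of one transcript and more of the others cannot be told apart, and the p-values measure the spread between 3 biological replicates per group. PEG and mock differed for 10557 of the 16612 genes (63.6%), of which 5207 were higher (31.3% of those tested) and 5350 lower (32.2%). No overlap between the PEG and mock libraries was seen for 69.1% of tested genes. An absolute log2 fold change over 1 was reached by 2868 called genes upwards (17.3%) and by 2114 downwards (12.7%). When counts were scaled by library size alone, the median of all genes moved from -0.03 to -0.50 and the calls became 3118 higher and 8272 lower, so that 27.4% rather than 49.3% of the calls were higher; every change below is relative to the centre that TMM set.

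Of the transcript features measured, length had the strongest correlation with the difference. Genes with under 2 kb of summed exons, 2895 in number, took 7.68%, 8.25% and 7.72% of the reads of tested genes in the mock libraries and 14.5%, 15.6% and 15.02% in the PEG libraries. The 3014 genes with over 8 kb took 25.6%, 24.5% and 25.3% in mock and 15.1%, 12.8% and 13.2% in PEG. The groups did not overlap in either class, and each mean difference, 7.15 points up and -11.4 points, gave the smallest p that an exact two-sided permutation test can reach with 3 against 3 (p = 0.1). Input lay between the 2 pellets for both classes, with a mean of 9.57% ± 0.191 (SD, n = 3) for short and 21.0% ± 0.269 (SD, n = 3) for long genes. Across 10 equal bins of genes by summed exon length the median log2 fold change passed from 0.88 in the shortest to -0.70 in the longest. Across 10 such bins of protein-coding genes by the length of the principal transcript, the isoform that the annotation ranks highest, it passed from 1.39 to -0.81. Isoforms with a complete coding region were preferred, and ties in rank went to the longest coding region and then to the longest transcript. Noncoding genes carry no such rank and took their longest transcript, with those of the annotation's basic set preferred. Spearman's correlation was -0.64 with principal transcript length over 13523 protein-coding genes, and over 13518 it was -0.60 with coding length and -0.38 with the length of the part after the stop codon; genes are not independent replicates and these measures share length.

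**Figure D1:**
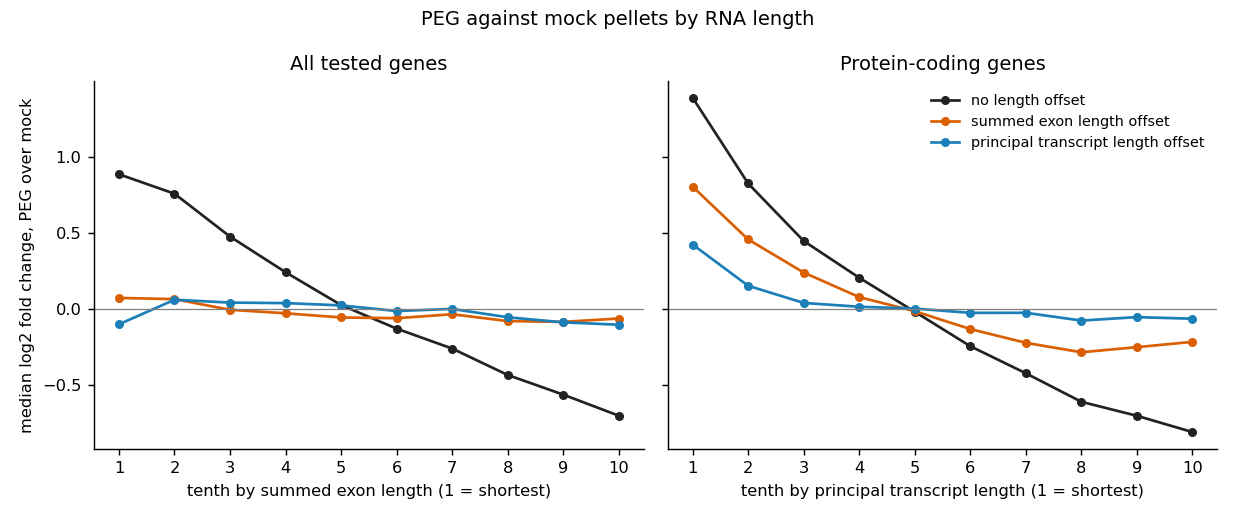
Median log2 fold change of PEG over mock in 10 equal bins of genes from the shortest (1) to the longest (10), for all tested genes by summed exon length on the left and for protein-coding genes by principal transcript length on the right, with lines for no length offset and for the summed exon and principal transcript offsets. Without an offset the medians pass from 0.88 to -0.70 on the left and from 1.39 to -0.81 on the right, and with the transcript offset the shortest bin on the right keeps 0.42.

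To look past length, a smooth trend of counts on length was fitted in each library and entered as an offset. With summed exons as the length, 9228 genes were called (55.6%), 4584 higher (27.6%) and 4644 lower (28%). With the principal transcript, an offset chosen after seeing the data because summed exons overstate the length of many genes, 8282 of 16529 genes were called (50.1%), 4156 higher (25.1%) and 4126 lower (25%). With principal transcript and coding length together, also chosen after seeing the data and only for 13518 protein-coding genes, 6308 were called (46.7%), 3100 higher (22.9%) and 3208 lower (23.7%). Over all genes tested the medians were -0.03 without an offset, -0.04 with the summed exon offset, -0.02 with the transcript offset and -0.02 with both lengths, and each gene group below is given beside these. Genes given below as exceptions within a list, and POLR2A, MT-ND3, EIF3A, MALAT1, TUG1 and KCNQ1OT1, were named after their values were seen. Calls in the same direction without an offset and with each of the 2 single offsets were made for 3000 genes upwards (18.1%) and 2783 downwards (16.8%).

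**Figure D2:**
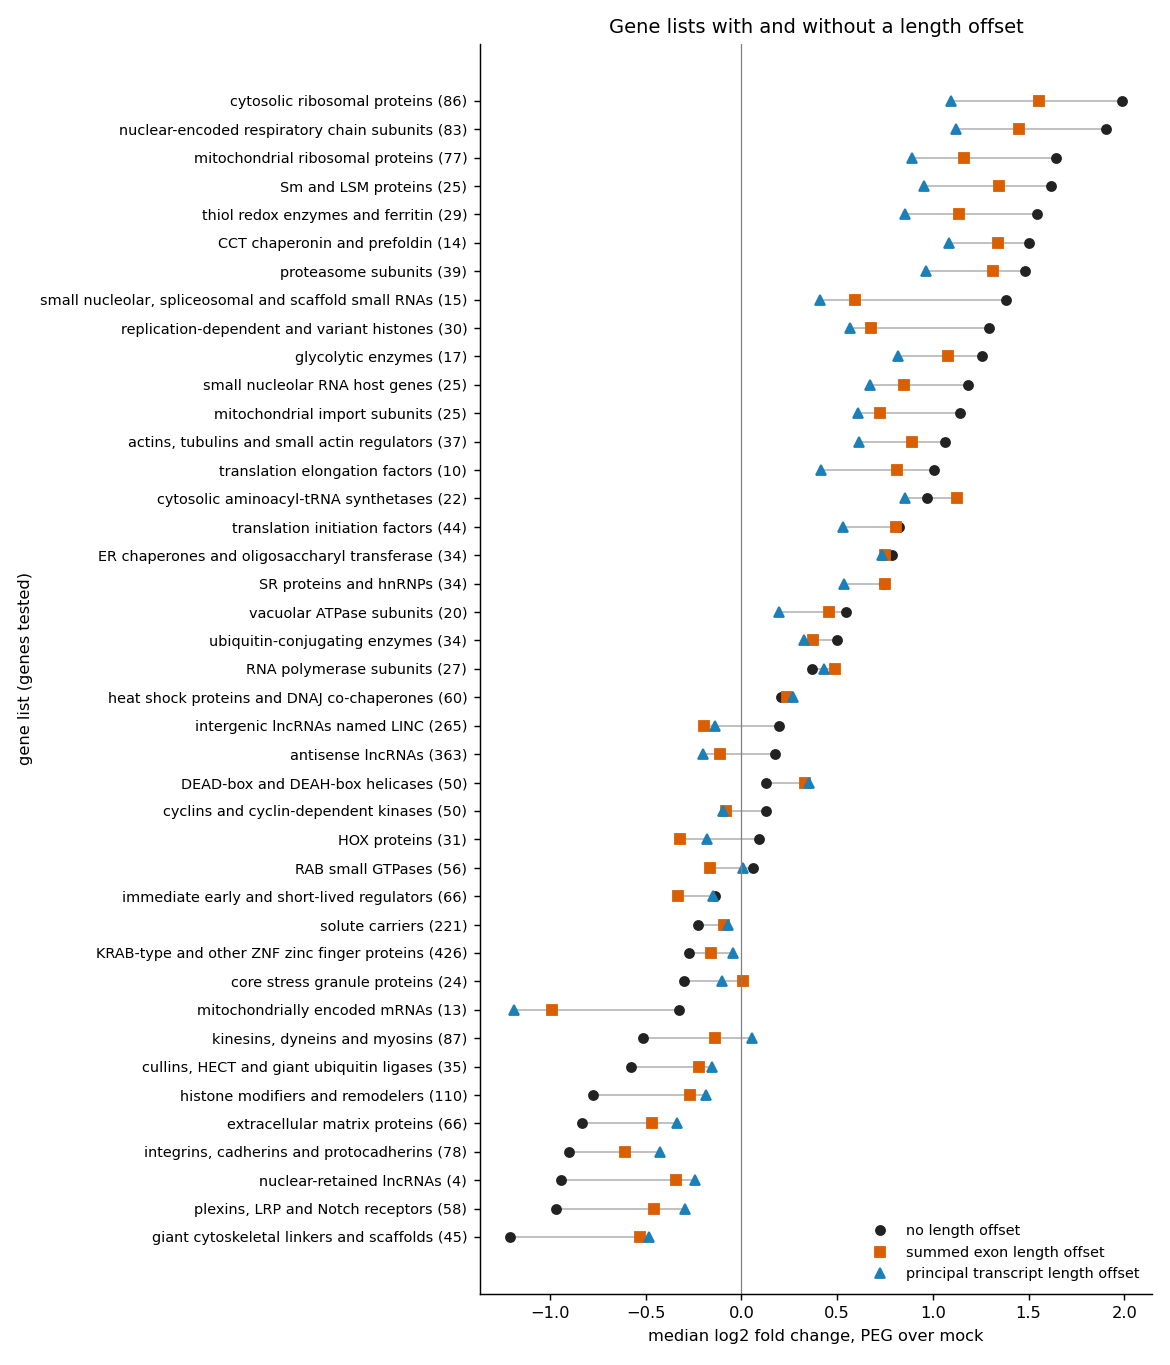
Median log2 fold change of PEG over mock for the gene lists described, with the number of genes tested in parentheses, without a length offset (circles), with the summed exon offset (squares) and with the principal transcript offset (triangles). Ribosomal proteins pass from 1.99 to 1.10, giant cytoskeletal linkers from -1.21 to -0.48, and mitochondrially encoded mRNAs lie further from 0 with the offsets, at -1.19.

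The largest rises among well-counted protein-coding genes were those of 2 testis-type antigens and 4 small subunits of the respiratory chain. NDUFS5, a subunit of complex I (ENSG00000168653, chr1:39026318-39034636, GRCh38), was at 148, 134 and 133 CPM in the mock libraries and 769, 980.0 and 991 CPM in the PEG libraries (log2 fold change 2.72, SE 0.151, edgeR adjusted p = 5.70e-06). Every PEG library was several times as high as any mock library. The other subunits were NDUFA2, NDUFA3 and COX6B1, with log2 fold changes of 2.64, 2.59 and 2.60. GAGE2A and PAGE2, X-linked antigens of the cancer and testis type, had log2 fold changes of 3.05 and 2.79, but near-identical copies of both make their counts uncertain. With the summed exon offset the leading rises were SEM1 at 3.002, a small proteasome subunit, GTF2H5 at 2.83, a subunit of the repair and transcription factor TFIIH, UQCRB at 2.79, of complex III, the ribosomal protein RPL37 at 2.74, the coactivator SUB1 at 2.71 and RPS27L at 2.70. SEM1 has long summed exons but a short principal transcript, and its value fell to 1.53 with the transcript offset, whereas GTF2H5 has a long annotated principal transcript and stood at 3.14.

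The 6 largest falls under the same rule were mixed in function. PCDHGC3, a protocadherin of a cluster whose genes share exons, which makes its counts uncertain, was at 29.03, 31.6 and 37.1 CPM in the mock libraries and 6.17, 3.37 and 3.03 CPM in the PEG libraries (log2 fold change -2.996, SE 0.244, edgeR adjusted p = 9.27e-06). ADCY7, an adenylyl cyclase, fell by 2.69 on the log2 scale, and EDC4, a scaffold of the mRNA decapping complex (ENSG00000038358, chr16:67873023-67884503), by 2.55. EDC4 was at 99.96, 76.5 and 81.8 CPM in the mock libraries and 20.1, 13.4 and 10.9 CPM in the PEG libraries. The groups were well apart for both protocadherin and decapping scaffold. HSPG2, which encodes the basement membrane proteoglycan perlecan (ENSG00000142798, chr1:21822245-21937297), was at 95.7, 83.1 and 102 CPM in the mock libraries and 27.9, 9.63 and 9.18 CPM in the PEG libraries (log2 fold change -2.61, SE 0.371, edgeR adjusted p = 0.000189). PEG replicate 1 lay above the other PEG libraries for HSPG2 and for the Wnt cofactor BCL9L, and without it their log2 fold changes moved from -2.61 to -3.28 and from -2.54 to -3.55. The sixth was AC240274.1 on an unplaced scaffold, at -2.74. All 6 also fell with the summed exon offset, where NDOR1, an oxidoreductase, at -2.83, SRXN1, sulfiredoxin, at -2.56, MT-ND4L at -2.47 and the acyl-CoA-binding gene ACBD7 at -2.40 joined the largest falls.

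**Figure D3:**
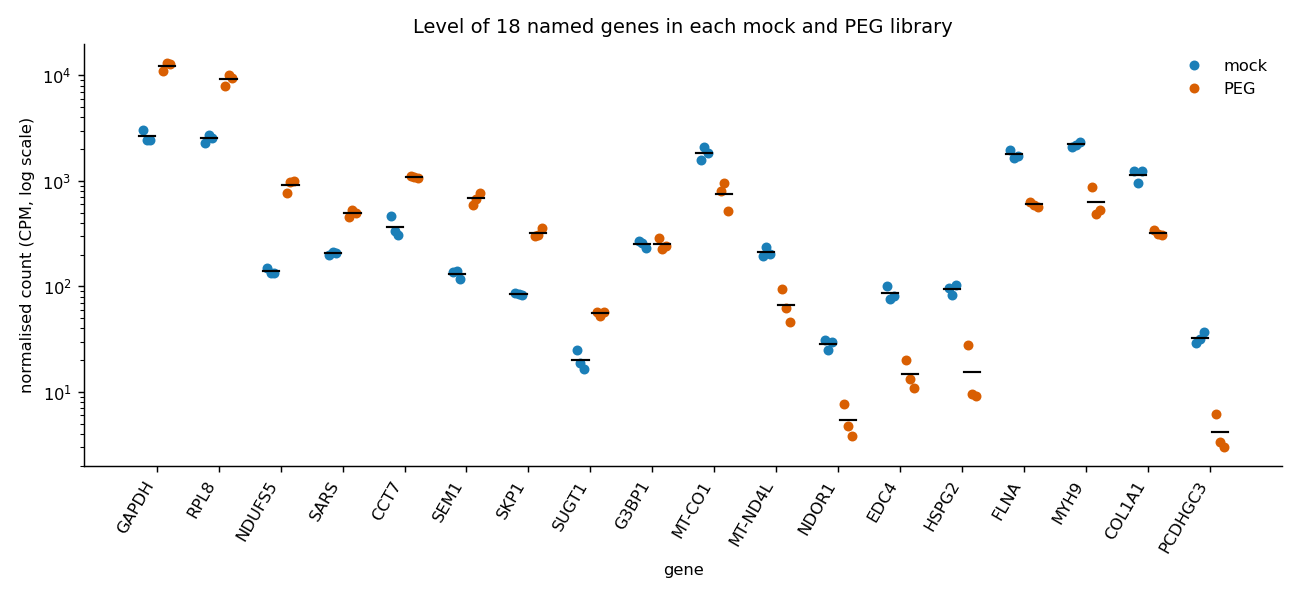
Normalised count (CPM, log scale) of 18 named genes in each mock (blue) and PEG (orange) library, with a line at the mean of 3 libraries. The groups do not overlap except for G3BP1, where the libraries of both groups mix.

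Most listed genes of protein synthesis were called higher in PEG. Of 86 cytosolic ribosomal protein genes, which encode the protein part of the ribosome and have short mRNAs, 85 were called higher and 0 lower; the gene not called was RPL7L1, a ribosomal protein-like gene at -0.02. Of the reads of tested genes they took 5.35%, 7.76% and 7.18% in the mock libraries and 15.9%, 19.6% and 17.8% in the PEG libraries. Every PEG library lay above every mock library, and mock replicate 1 was the lowest of its group. RPL8, the most abundant of them, was at 2309, 2726 and 2544 CPM in the mock libraries and 7994, 10009 and 9485 CPM in the PEG libraries (log2 fold change 1.86, SE 0.173, edgeR adjusted p = 1.68e-05). The median over the list was 1.99 without an offset, 1.56 with the summed exon offset and 1.10 with the transcript offset. It was 0.38 with both lengths, against -0.02 over all genes in that fit. That fit also left out noncoding genes, so the change from 1.10 cannot be put down to coding length alone. With the transcript offset 82 of the 86 were still called higher and 0 lower. RPL39 and RPS29, which encode very short proteins, had 1.92 and 2.02 without an offset but -0.53 and 0.03 with both lengths. Ribosomal protein genes have many processed copies in the genome, so reads may have been shared with these.

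Among factors that act on the ribosome, translation initiation factors, which bring mRNA and ribosome together, numbered 44, of which 28 were called higher and 7 lower, with a median of 0.82 without an offset, 0.81 with the summed exon offset and 0.53 with the transcript offset. EIF4B, the most abundant, showed no call at 0.06. EIF3A, the largest eIF3 subunit, went the other way and fell by 1.61 without an offset and 1.25 with the summed exon offset. Of 10 genes listed as elongation factors, among them EEF1E1, which is one by name only, 8 were called higher and 1 lower (0 lower without mock replicate 3, PEG replicate 2 or PEG replicate 3). The lower gene was EIF5A2 at -0.41, and EEF1A1, which delivers tRNA to the ribosome, had 1.09. Aminoacyl-tRNA synthetases, the enzymes that load tRNAs and whose mRNAs are of medium to large size, gave a group whose median changed little with the offsets. Of 22 tested, 16 were called higher and 1 lower (0 lower without PEG replicate 1, PEG replicate 2 or PEG replicate 3), the lower gene being VARS at -0.44. The median was 0.97 without an offset, 1.13 with the summed exon offset and 0.86 with the transcript offset, and 0.95 with both lengths, and 18 of 22 were called higher and 0 lower with the transcript offset. SARS, the seryl-tRNA synthetase (ENSG00000031698, chr1:109213918-109238169), was at 199.9, 212 and 206 CPM in the mock libraries and 452, 530.1 and 491 CPM in the PEG libraries (log2 fold change 1.25, SE 0.122, edgeR adjusted p = 2.09e-05).

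Mitochondrial genes parted by the genome that encodes them. Nuclear-encoded subunits of the respiratory chain, whose mRNAs are translated in the cytosol and whose proteins are imported, were higher: of 83 tested, 81 were called higher and 1 lower (0 lower without PEG replicate 2 or PEG replicate 3), the lower gene being COX7A1 at -1.51, a muscle-type isoform with under 3 CPM in every library. Of the reads they took 0.783%, 0.770% and 0.700% in the mock libraries and 1.80%, 1.93% and 1.90% in the PEG libraries, without overlap. The median was 1.91 without an offset, 1.45 with the summed exon offset and 1.12 with the transcript offset, and 0.51 with both lengths. CYC1, cytochrome c1, had 1.41. Mitochondrial ribosomal proteins numbered 77, of which 75 were called higher and 0 lower, with a median of 1.65 without an offset, 1.16 with the summed exon offset and 0.89 with the transcript offset, and MRPL51 had 1.93. Of 25 subunits of the import machinery 20 were called higher and 2 lower (1 lower without mock replicate 1, PEG replicate 2 or PEG replicate 3), the lower genes being TOMM40L at -0.56 and TIMM23B at -0.65. TIMM8B, a small chaperone of the space between the membranes and the most abundant, had 2.27.

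The mRNAs made inside mitochondria are short. Of 13 tested, 1 was called higher and 5 lower (2 higher without PEG replicate 3) without an offset, and the share called lower was near the 32.2% of all tested genes. Their share of reads was 0.973%, 1.23% and 1.10% in the mock libraries and 0.710%, 0.700% and 0.467% in the PEG libraries, and no PEG library reached the lowest mock library. MT-CO1, which encodes the catalytic subunit of cytochrome c oxidase (ENSG00000198804, chrMT:5904-7445), was at 1572, 2103 and 1843 CPM in the mock libraries and 797, 944 and 521 CPM in the PEG libraries (log2 fold change -1.29, SE 0.222, edgeR adjusted p = 0.000639). MT-ND4L, whose gene overlaps MT-ND4 so that reads of the pair cannot be assigned with certainty, was at 193, 236 and 201 CPM in the mock libraries and 93.5, 62.6 and 45.8 CPM in the PEG libraries (log2 fold change -1.65, SE 0.229, edgeR adjusted p = 0.000166). PEG replicate 3 was the lowest library for both genes. MT-ND3 was the exception at 182, 159 and 142 CPM in the mock libraries and 359, 432 and 313 CPM in the PEG libraries (log2 fold change 1.19, SE 0.156, edgeR adjusted p = 0.000114). The median was -0.32 without an offset, -0.99 with the summed exon offset and -1.19 with the transcript offset, and -1.96 with both lengths. With the summed exon offset 0 were called higher and 10 lower (1 higher without mock replicate 1 or PEG replicate 3), against 28% of all tested genes called lower in that fit. Relative to input, with which each pellet was compared in turn and which both comparisons share, the median was 1.45 in mock against input and 1.03 in PEG against input. Nuclear copies of the mitochondrial genome can share these reads.

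**Figure D4:**
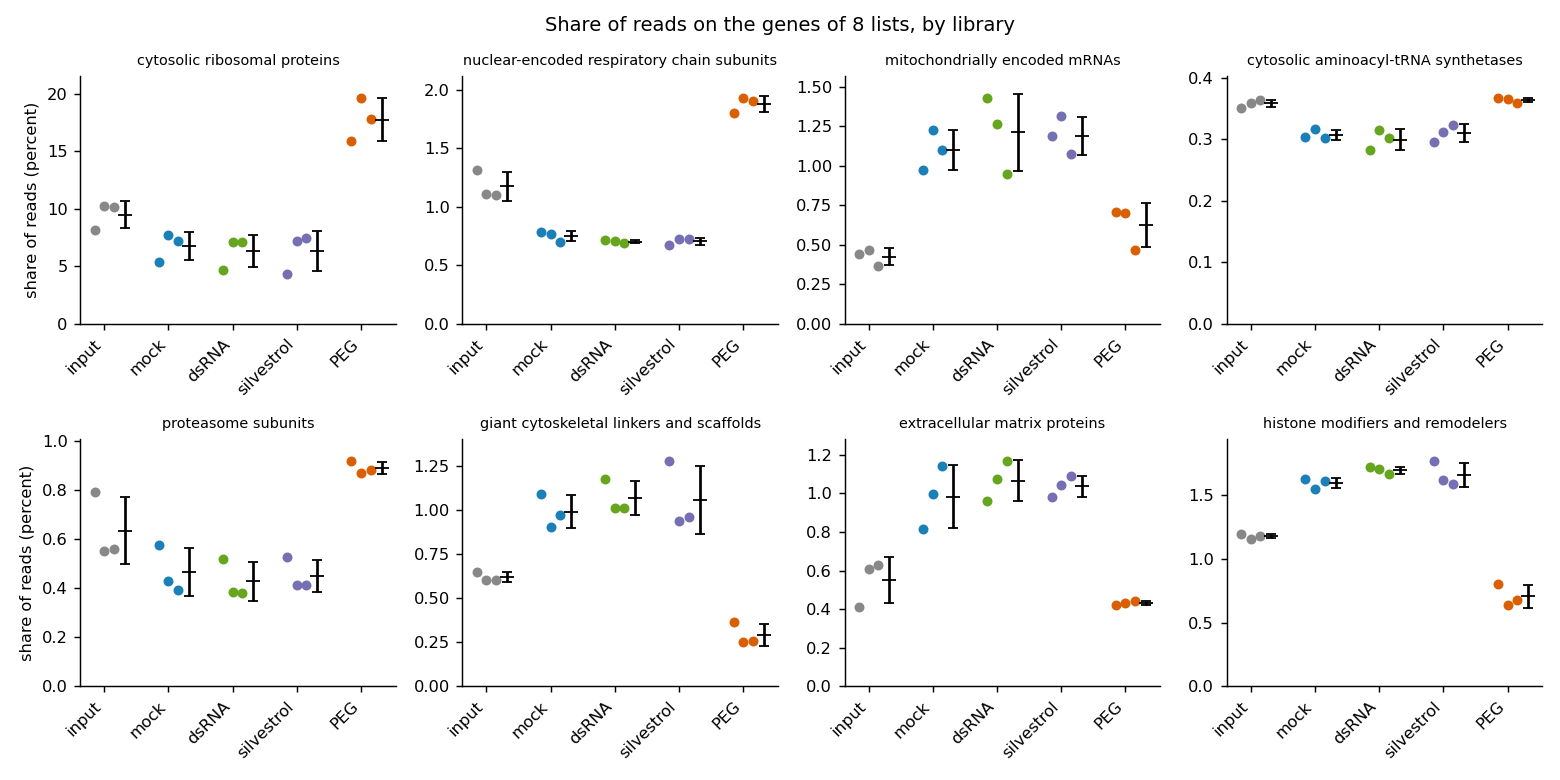
Share of the reads of tested genes (percent) that fell on each of 8 gene lists, with a point per library and bars for the mean ± SD (n = 3) in input and in mock, dsRNA, silvestrol and PEG pellets. PEG lies apart from mock in every panel, for example at 15.9% to 19.6% against 5.35% to 7.76% for cytosolic ribosomal proteins and at 0.467% to 0.710% against 0.973% to 1.23% for mitochondrially encoded mRNAs.

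All 14 tested subunits of the CCT chaperonin and of prefoldin, which fold actin and tubulin, were called higher, with a median of 1.504 without an offset, 1.34 with the summed exon offset and 1.08 with the transcript offset, and 0.84 with both lengths. CCT7 (ENSG00000135624, chr2:73233420-73253021) was at 460.1, 332 and 308 CPM in the mock libraries and 1111, 1094 and 1065 CPM in the PEG libraries (log2 fold change 1.57, SE 0.170, edgeR adjusted p = 3.71e-05), with mock replicate 1 the highest mock library. Of 39 proteasome subunits 36 were called higher and 0 lower, with a median of 1.48 without an offset, 1.31 with the summed exon offset and 0.96 with the transcript offset, although PSMD2, the most abundant, showed no call at -0.03. Their share of reads was 0.578%, 0.428% and 0.392% in the mock libraries and 0.919%, 0.869% and 0.883% in the PEG libraries, without overlap. Chaperones of the endoplasmic reticulum (ER) and oligosaccharyl transferase subunits, which fold and glycosylate secretory proteins, were listed with genes of other function such as SRP9 and SEC61A2. This list gave 25 higher and 2 lower of 34 (1 lower without mock replicate 2, mock replicate 3, PEG replicate 2 or PEG replicate 3). Its median was 0.79 without an offset, 0.75 with the summed exon offset and 0.73 with the transcript offset. The lower genes were STT3B at -0.35 and HSP90B1 at -0.76. HSP90B1, the ER chaperone GRP94 and the most abundant of that list, fell by 0.76 without an offset, 0.71 with the summed exon offset and 0.77 with the transcript offset.

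Heat shock proteins and DNAJ co-chaperones were split, as 23 were called higher and 14 lower (8 lower without PEG replicate 2, 9 lower without PEG replicate 3) of 60, with a median of 0.21 that turned to -0.25 when counts were scaled by library size alone. HSP90AB1, the constitutive cytosolic HSP90, had 0.83. Enzymes that hand on ubiquitin and those that choose its targets were counted apart. Of 34 small E2 conjugating enzymes 20 were called higher and 4 lower (2 lower without mock replicate 3, 1 lower without PEG replicate 2 or PEG replicate 3), with UBE2S at 1.35 and the lower genes UBE2J1 at -0.34, UBE2Q2 at -0.35, UBE2G1 at -0.33 and UBE2O at -0.79. Of 35 cullins, HECT and giant ligases 2 were called higher and 25 lower (5 higher without mock replicate 1, 1 higher without mock replicate 2 or mock replicate 3), with HUWE1 at -1.05 and the higher genes CUL3 at 0.47 and NEDD4L at 0.40. The medians were 0.50 and -0.58 without an offset, 0.33 and -0.15 with the transcript offset, and 0.10 and 0.08 with both lengths. With both lengths 13 of the E2 enzymes were called higher and 5 lower, and 11 of the ligases higher and 5 lower. The difference between the lists was not tested.

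Of 17 glycolytic enzymes 13 were called higher and 1 lower, the lower gene being the hexokinase HK2 at -1.21. GAPDH (ENSG00000111640, chr12:6533927-6538374), the best known of them, was at 3045, 2437 and 2421 CPM in the mock libraries and 11004, 13050.3 and 12943 CPM in the PEG libraries (log2 fold change 2.23, SE 0.184, edgeR adjusted p = 9.56e-06), and the PEG libraries lay far above the mock libraries. Of all reads the list took 1.17%, 0.933% and 0.904% in the mock libraries and 2.34%, 2.35% and 2.23% in the PEG libraries, and its median was 1.26 without an offset, 1.08 with the summed exon offset and 0.82 with the transcript offset, and 0.75 with both lengths. Thiol redox enzymes and ferritin, which buffer oxidants and iron, gave 27 higher and 1 lower of 29, the lower gene being GSTM2 at -1.30. PRDX1, a peroxiredoxin, had 2.09, and the median of the list was 1.54 without an offset, 1.14 with the summed exon offset and 0.86 with the transcript offset, but 0.26 with both lengths.

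Lists of RNA-binding proteins were counted one by one. Of 25 Sm and LSM proteins, the rings of spliceosomal and decay complexes, 21 were called higher and 0 lower, with SNRPB at 1.53 and a list median of 1.62 without an offset, 1.34 with the summed exon offset and 0.95 with the transcript offset. Of 34 SR proteins and hnRNPs, which bind pre-mRNA, 21 were called higher and 2 lower (1 lower without mock replicate 2, mock replicate 3 or PEG replicate 1, 0 lower without PEG replicate 2 or PEG replicate 3), with a median of 0.74 without an offset, 0.75 with the summed exon offset and 0.53 with the transcript offset and HNRNPA1 at 1.41. The lower genes were SRSF10 at -0.30 and HNRNPUL1 at -0.47. DEAD-box and DEAH-box helicases, which remodel RNA, gave 16 higher and 16 lower of 50 without an offset, near the 31.3% and 32.2% of all tested genes. With the transcript offset, where 25.1% of all genes were called higher and 25% lower, 25 of the helicases were higher and 9 lower. Their median moved from 0.13, or -0.33 by library size alone, to 0.35 with the transcript offset. DDX5, the most abundant, had 0.59.

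The mRNAs listed for SG proteins themselves did not share a direction. This list also holds EDC4, the scaffold of the decapping complex given above, which was its lowest gene at -2.55. Of 24 tested, 4 were called higher and 12 lower, with a median of -0.30 without an offset, 0.01 with the summed exon offset and -0.10 with the transcript offset. G3BP1, the protein around which SGs nucleate, was at 268, 259 and 229.5 CPM in the mock libraries and 289, 226 and 243 CPM in the PEG libraries (log2 fold change 0.00, SE 0.134, edgeR adjusted p = 0.990), and its libraries overlapped. Its mRNA is long, and with length offsets it stood at 0.63 and 0.75. The 4 called higher were YBX1 at 1.44, YBX3 at 0.92, FXR1 at 0.58 and ELAVL1 at 0.58, all binders of mRNA. PABPC1, the cytoplasmic poly(A)-binding protein, had -0.34 (edgeR adjusted p = 0.0487), a call that was lost without any one library other than mock replicate 1.

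Genes of chromatin and transcription parted without an offset. Of 110 histone modifiers and chromatin remodelers, mostly large enzymes, 10 were called higher and 78 lower, and their share of reads was 1.63%, 1.55% and 1.61% in the mock libraries and 0.804%, 0.636% and 0.677% in the PEG libraries. Their median was -0.78 without an offset, -0.27 with the summed exon offset and -0.18 with the transcript offset, and 0.00 with both lengths, and CHD4, a remodeler of the NuRD complex, had -0.80. Histones, the short genes these enzymes act on, gave 25 higher and 0 lower of 30 without an offset. Their median was 1.29 without an offset, 0.68 with the summed exon offset and 0.57 with the transcript offset. With both lengths it was 0.17, and 5 were called higher and 5 lower. Most replication-dependent histone mRNAs lack the poly(A) tail by which these libraries were selected, and histone gene copies are near identical. H1F0, a linker histone and the most abundant, showed no call at -0.13. Zinc finger genes of the ZNF class, 426 in number, gave 58 higher and 164 lower, with ZNF316 at -1.43 and a median of -0.28 without an offset, -0.16 with the summed exon offset and -0.04 with the transcript offset. RNA polymerase subunits gave 14 higher and 4 lower of 27, with a median of 0.37 that was -0.09 by library size alone. POLR2B, the most abundant, showed no call at -0.19. HOX genes, which set position along the body axis, were mixed with 9 higher and 6 lower of 31 (median 0.09, and -0.37 by library size alone), with HOXB2 at 0.64. The HOX share called higher was near the 31.3% of all tested genes, and the share called lower was below 32.2%. POLR2A, the largest subunit of RNA polymerase II, was at 292, 230.1 and 251 CPM in the mock libraries and 84.4, 29.6 and 36.4 CPM in the PEG libraries (log2 fold change -2.37, SE 0.339, edgeR adjusted p = 0.000199).

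Structural genes held the lowest list median without an offset. Giant cytoskeletal linkers and scaffolds, the spectrins, plakins, filamins and their like that tie filaments together, gave 1 higher and 42 lower of 45; the higher gene was GOLGA7 at 0.57, a small gene that shares only the golgin name. Their share of reads was 1.09%, 0.906% and 0.974% in the mock libraries and 0.366%, 0.250% and 0.257% in the PEG libraries. FLNA, which crosslinks actin (ENSG00000196924, chrX:154348524-154374638), was at 1975, 1642 and 1722 CPM in the mock libraries and 631, 596 and 564 CPM in the PEG libraries (log2 fold change -1.58, SE 0.144, edgeR adjusted p = 1.53e-05). MYH9, non-muscle myosin IIA (ENSG00000100345, chr22:36281281-36388018), which belongs with the kinesins, dyneins and myosins below, was at 2097, 2195 and 2355 CPM in the mock libraries and 872, 483 and 527 CPM in the PEG libraries (log2 fold change -1.82, SE 0.226, edgeR adjusted p = 8.22e-05). No PEG library of either gene came near the mock libraries. The median of the giant linkers and scaffolds was -1.21 without an offset, -0.53 with the summed exon offset and -0.48 with the transcript offset, and -0.14 with both lengths, and with the transcript offset 0 were called higher and 24 lower (2 higher without mock replicate 1, 1 higher without PEG replicate 1). Kinesins, dyneins and myosins gave 21 higher and 44 lower of 87, with a median of -0.52 without an offset, -0.14 with the summed exon offset and 0.06 with the transcript offset. The small building blocks went up: of 37 actins, tubulins and small actin regulators 30 were called higher and 1 lower (0 lower without mock replicate 1, PEG replicate 2 or PEG replicate 3), with a median of 1.06 without an offset, 0.89 with the summed exon offset and 0.62 with the transcript offset and ACTB at 1.32. The lower gene was ACTR2 at -0.43.

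Without an offset most tested genes for matrix proteins and surface receptors fell, against 32.2% of all genes. Of 66 extracellular matrix genes 4 were called higher and 40 lower. COL1A1, the main collagen of bone (ENSG00000108821, chr17:50183289-50201632), was at 1241, 958 and 1229 CPM in the mock libraries and 344, 315 and 307 CPM in the PEG libraries (log2 fold change -1.83, SE 0.150, edgeR adjusted p = 9.51e-06). The 4 higher were TIMP1, an inhibitor of matrix proteases, at 2.48, FBLN5 at 0.80, FBLN1 at 0.66 and SPARC at 0.64. The list median was -0.83 without an offset, -0.47 with the summed exon offset and -0.33 with the transcript offset, and relative to input, which both comparisons share, 0.80 in mock against input and -0.01 in PEG against input. Integrins, cadherins and protocadherins, the receptors that hold cells to matrix and to each other, gave 4 higher and 49 lower of 78, with a median of -0.90 without an offset, -0.61 with the summed exon offset and -0.43 with the transcript offset, and with the transcript offset 9 were called higher and 27 lower (5 higher without PEG replicate 3, 43 lower without mock replicate 1, 17 lower without mock replicate 3 or PEG replicate 2). The higher genes were ITGB3BP at 1.61, ITGB1BP1 at 0.66, CDH15 at 1.06 and ITGAE at 0.88, of which ITGB3BP and ITGB1BP1 encode proteins that bind integrin tails and are no integrins. ITGB5, the most abundant of the list, showed no call at -0.35. Plexins, LRP and Notch receptors were listed with other receptors such as EPHA8, SORT1 and PTPRR. This list gave 2 higher and 40 lower of 58 (1 higher without mock replicate 2, mock replicate 3, PEG replicate 1, PEG replicate 2 or PEG replicate 3), with PLXNB2 at -1.42 and the higher genes NOTCH4 at 0.60 and PTPRR at 1.07. The median of the last list with the transcript offset was -0.29. With both lengths the medians were -0.10 for the matrix genes, -0.27 for the integrin list and -0.12 for the last list. In that fit 4 matrix genes were called higher and 14 lower, 10 and 18 of the integrin list, and 7 and 11 of the last list. Over all genes in that fit 22.9% were called higher and 23.7% lower.

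Lists of mixed membrane and regulatory genes lay nearer to the centre. Solute carriers gave 44 higher and 84 lower of 221 (median -0.23), with SLC25A5, the ADP/ATP carrier of mitochondria, at 1.26. Of 20 subunits of the vacuolar proton pump 10 were called higher and 1 lower (2 lower without mock replicate 1 or PEG replicate 1), the lower gene being ATP6V0A2 at -0.74, with ATP6AP1 at 0.55 and a median of 0.55 that was 0.19 with the transcript offset. RAB GTPases, which direct vesicles, gave 18 higher and 17 lower of 56 (10 lower without PEG replicate 3), with RAB1A at 0.76. Both RAB shares were near the 31.3% and 32.2% of all tested genes. Immediate early and other short-lived regulators gave 19 higher and 21 lower of 66, with IER3 at 1.37. Their median was -0.14 without an offset and -0.33 with the summed exon offset. Cyclins with their kinases gave 17 higher and 19 lower of 50. The shares of both lists were not far from the 31.3% and 32.2% of all tested genes. The cyclin CCND2 had 0.50, a call lost without PEG replicate 1, 2 or 3. By library size alone the medians of the RAB genes and of the cyclins turned from 0.06 to -0.40 and from 0.13 to -0.32.

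Long noncoding RNAs (lncRNAs) differed by class. Host genes of small nucleolar RNAs, whose spliced transcripts are exported and short, gave 21 higher and 2 lower of 25, with a median of 1.19 without an offset, 0.85 with the summed exon offset and 0.67 with the transcript offset and SNHG6 at 2.23. The lower ones were SNHG4 at -1.68 and SNHG14 at -1.36. Of 4 RNAs that are kept in the nucleus, NEAT1, TUG1 and KCNQ1OT1 fell by 1.42, 0.95 and 0.94 without an offset. With the summed exon offset NEAT1 and TUG1 had -0.67 and -0.61, both called, and KCNQ1OT1 had -0.08 with no call. With the transcript offset NEAT1 was called at -0.64, while TUG1 at -0.25 and KCNQ1OT1 at -0.24 were not. MALAT1 was at 212, 282 and 272 CPM in the mock libraries and 742, 395 and 501 CPM in the PEG libraries (log2 fold change 1.10, SE 0.223, edgeR adjusted p = 0.00173). Intergenic RNAs named LINC gave 87 higher and 39 lower of 265 (24 lower without PEG replicate 2, 22 lower without PEG replicate 3), with LINC00963 uncalled at -0.18. Antisense lncRNAs gave 115 higher and 70 lower of 363, with LRRC75A-AS1 at 1.40. In both the LINC and antisense lists the share called higher was near the 31.3% of all tested genes, and the share called lower was below 32.2%. Both medians changed sign with length and with scaling, from 0.20 and 0.18 to -0.20 and -0.11 with the summed exon offset and to -0.28 and -0.29 by library size alone. Because the strand setting of the counting is not stated, reads of antisense genes and their partners cannot be told apart.

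Small nucleolar, spliceosomal and scaffold RNAs gave 8 higher and 1 lower of 15, against 31.3% and 32.2% of all tested genes. The lower one was SNORD17 at -1.85. The median was 1.38 without an offset and 0.59 with the summed exon offset. With 1 library left out these ranged from 0.84 to 1.99 and from -0.06 to 1.13. Their share of reads was 0.0955%, 0.0493% and 0.0522% in the PEG libraries. The libraries were poly(A)-selected, and whether these RNAs carried a tail was not tested. BCYRN1, a repeat-derived small cytoplasmic RNA, had 3.01, and 3.82 without mock replicate 1. Outside protein-coding genes, among called genes whose mean log2 CPM reached 3 and whose groups did not overlap, the largest changes were those of the pseudogenes AC090498.1 at 3.12 and TMSB4XP4 at 3.04, whose reads may come from near-identical parent genes, and of TSSK5P at -3.47 and AC138932.1 at -2.99, which were -5.31 and -4.10 without PEG replicate 1. By annotation class, 310 processed pseudogenes had a median of 0.998 without an offset and 0.03 with the transcript offset. Sense intronic genes and unprocessed pseudogenes lay low once length was allowed for. The 84 sense intronic genes had a median of -0.83 with the summed exon offset, with 4 higher and 44 lower, and 113 unprocessed pseudogenes -0.91, with 3 higher and 69 lower. Genes of unresolved class, marked TEC, numbered 95 and had -0.78.

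Some genes went against the length trend outright. In the shortest of 10 equal bins of protein-coding genes by summed exons, at most 2162 nt, 1014 of 1355 were called higher and 73 lower, and 18 of the lower genes had an average log2 CPM of at least 3. In the longest bin, at least 10562 nt, 900 of 1354 were called lower and 100 higher, 96 of them at that level. Short genes with the largest falls were MT-ND4L, ACBD7 at -1.64 and CMTM1, a chemokine-like membrane gene, at -1.51. Long genes with the largest rises were SEM1 at 2.39, SKP1 at 1.93 and SUGT1 at 1.46. SKP1, the adaptor of SCF ubiquitin ligases (ENSG00000113558, chr5:134148935-134177038), was at 86.4, 84.5 and 82.1 CPM in the mock libraries and 299.8, 309 and 354 CPM in the PEG libraries (log2 fold change 1.93, SE 0.121, edgeR adjusted p = 5.70e-06). SUGT1, a co-chaperone that binds SKP1 and HSP90 (ENSG00000165416, chr13:52652709-52700909), was at 25.1, 18.7 and 16.6 CPM in the mock libraries and 57.03, 52.3 and 57.1 CPM in the PEG libraries (log2 fold change 1.46, SE 0.161, edgeR adjusted p = 4.10e-05). The groups of both genes were far apart. SEM1 is long by summed exons only, at 11490 nt against 1314 nt for its principal transcript, while the principal transcripts of SKP1 and SUGT1 are 9474 and 14131 nt, and which isoform was in the pellets cannot be read from counts per gene. The transcript offset can therefore misplace a gene: POLR2A and AHNAK have long mRNAs but short annotated principal transcripts, and AHNAK, a giant scaffold, went from -0.64 without an offset and 0.10 with summed exons to -1.61 with the transcript offset.

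**Figure D5:**
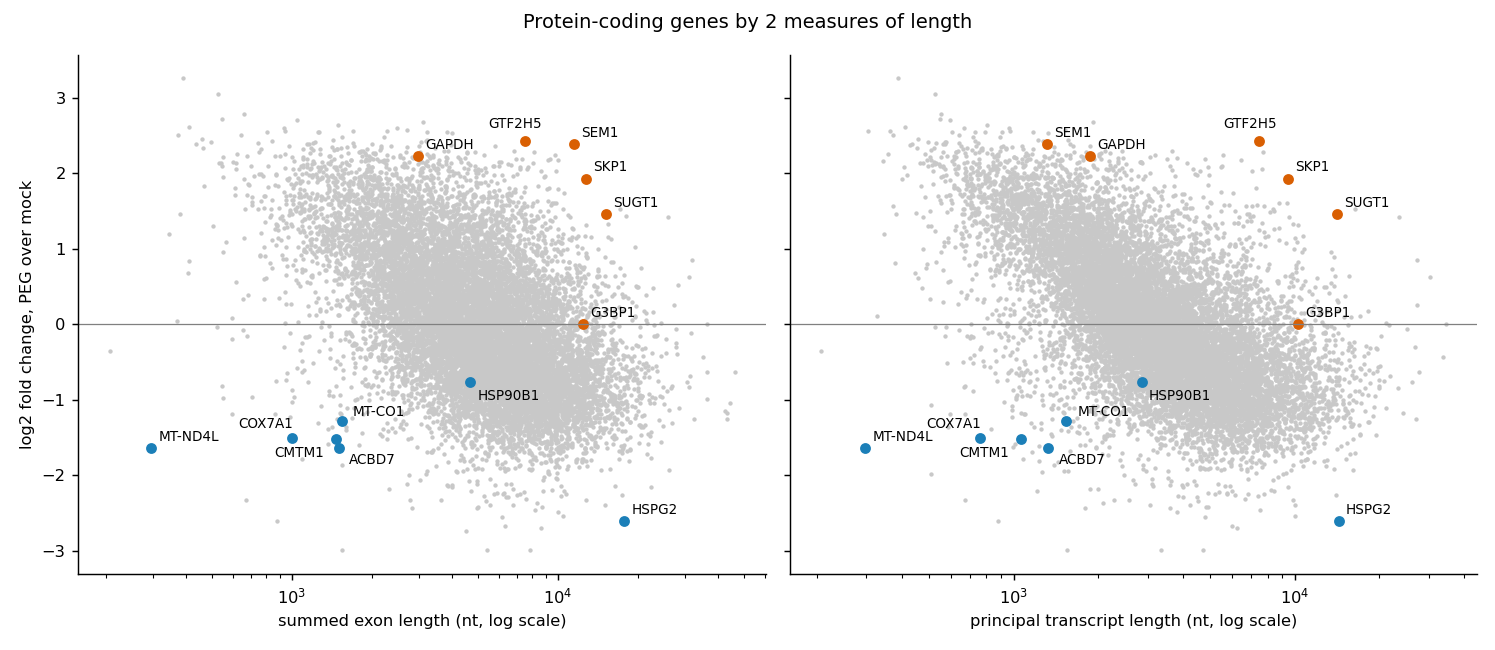
Log2 fold change of PEG over mock for protein-coding genes against summed exon length (left) and principal transcript length (right), both in nt on a log scale, with grey points for single genes. Orange marks genes that stood high and blue genes that stood low for their length, except GAPDH and HSPG2, which are shown for orientation: SKP1 at 1.93 and SUGT1 at 1.46 are long by both measures, SEM1 at 2.39 by summed exons only.

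Other features of the transcripts were described over protein-coding genes. The correlation with coding length was -0.39 after the summed exon offset and -0.31 after the transcript offset, so that genes of short coding regions stayed higher in PEG. Principal transcript length itself kept -0.12 after the transcript offset, which had not removed all of its trend among these genes. With both lengths the correlation with coding length was 0.01, which the offset sets in advance. GC content was uncorrelated without an offset (0.004) but stood at -0.22 after the transcript offset and -0.28 with both lengths. With these genes cut into 5 equal bins by GC, the median after the transcript offset was 0.14, 0.15, 0.11 and 0.00 in the lower 4 bins and -0.29 in the richest. Average level had a weak positive correlation, 0.13 after the transcript offset. Genes whose coding sequence holds a hydrophobic stretch within its first 40 residues, as signal peptides do, numbered 1952 and had medians of -0.11 without an offset and 0.00 after the transcript offset. Those with such a stretch only later, as in many membrane proteins, numbered 2664 and had -0.37 and -0.07, against 0.01 and 0.07 for the 8867 genes with none.

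The study names 12 transcripts as examples of length, picked for high or low levels in stress granules formed under arsenite. It also shows them in these pellets, and whether these libraries entered the choice is not stated, so they are not read as independent evidence of direction. All 8 long ones were called lower, from -2.54 for BCL9L to -0.64 for AHNAK. Between them lay PEG3 at -1.35, an imprinted zinc finger gene whose name is unrelated to the polymer, the microtubule gene MAP1A at -1.21, the scaffold AHNAK2 at -0.93, the kinase CDK6 at -0.87, ZNF704 at -0.80 and the dynein heavy chain DYNC1H1 at -0.74. BCL9L moved to -3.55 without PEG replicate 1. MAP1A moved to -0.45 without mock replicate 1 and lost its call without PEG replicate 2 or 3, as did AHNAK2. With the summed exon offset 0 were called higher and 2 lower (1 lower without mock replicate 1, PEG replicate 2 or PEG replicate 3) of the 8, the lower genes being BCL9L at -2.02 and PEG3 at -0.85. The 4 short ones were all called higher, namely RPL31 at 2.35, GAPDH at 2.23, RPL39 and RPS29 as above, with a median of 2.13 without an offset, 2.22 with the summed exon offset and 1.35 with the transcript offset.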

How the data were processed

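Poly(A)-selected RNA of 3 mock and 3 PEG pellets was analysed, with input, dsRNA and silvestrol libraries used for the count filter and as reference levels. For every library the authors deposited a table of gene-level read counts that had not been normalised, with summed exon lengths. The submitters' processing notes name Trimmomatic 0.36, STAR 2.5.2b, featureCounts of Subread 1.5.2 and GRCh38. The strand setting is not given in the sources used here. Gene models, principal transcripts, coding lengths, GC and hydropathy (windows of 19 residues in translated coding sequences, mean Kyte-Doolittle value over 1.6) came from GENCODE release 29 on GRCh38, where 56898 of 57500 identifiers were found.

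Genes with 10 counts in 2 or more libraries of all 5 conditions were tested with edgeR 4.0.16 (TMM, quasi-likelihood F test, R 4.3.3) on the 6 libraries, with Benjamini-Hochberg adjustment and a threshold of 0.05. DESeq2 1.42.0, which the study's methods name, was an alternative. Length offsets were smooth trends per library on log10 length (loess, span 0.3). The tests were tried on simulated data with known answers. Figures were drawn with matplotlib 3.10.9.

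Same-numbered mock and PEG libraries, paired by the labels' replicate numbers, correlated in their deviations from the group means at 0.313, 0.219 and 0.160, and the 6 pairs of unlike number at -0.287 to 0.157, so the replicate block was the paired alternative. Named genes were, by rule, the 6 largest rises and falls without an offset and with the summed exon offset among called protein-coding genes whose mean log2 CPM reached 3 and whose groups did not overlap, 2 of other biotypes in each direction, the 3 largest changes against the trend in the longest and shortest of 10 bins by length, the most abundant member of each list, the 12 transcripts the study names, and G3BP1. Members, lists and rules were chosen with earlier results of these data known. A gene list and a gene of another list are not reported here.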

Additional observations from a re-analysis of the deposited data

How the results depend on the processing

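Of the alternatives run, 2 moved a number of called genes by over 1.5 times. By library size alone 3118 genes were higher and 8272 lower. At an absolute log2 fold change over 1 there were 2868 and 2114, and with the summed exon offset 1899 and 1607. With 1 library left out the counts ranged from 4662 to 5669 higher and from 4194 to 5773 lower, and with the summed exon offset from 3852 to 5246 and from 3545 to 5291. The replicate block gave 5598 higher and 5716 lower, and with the summed exon offset 5030 and 5165. It changed no count by over 1.5 times. Libraries thinned to the smallest total count gave 5035 and 5074. Shares of short and long genes differed by 1.15 and -7.11 points when under 1 kb and over 10 kb set the classes, and by 6.87 to 7.42 and -12.1 to -10.9 with 1 library left out. Of 82 named genes, 75 were called without an offset, of which 66 held under every alternative, 9 lost the call under at least 1 and 0 reversed. With the summed exon offset 69 were called, of which 54 held under every alternative. The call was lost under at least 1 alternative for 14, and 2, CHD4 and RPL39, reversed when both lengths were offset, with 1 gene counted under both.

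Sign changes without an offset were those of 3 genes that were not called. EIF4B went from 0.061 to -0.41 by library size alone, -0.013 without a count filter, -0.015 with all 5 groups in the fit, -0.053 with a GC offset, -0.048 with GC offset and replicate block and a range of -0.020 to 0.13 with 1 library left out. PSMD2 went from -0.026 to 0.037 with the replicate block, 0.0025 with libraries thinned to the smallest total and a range of -0.19 to 0.34 with 1 library left out. G3BP1 went from 0.0022 to -0.46 by library size alone, -0.0043 with the filter on mock and PEG only, -0.074 without a count filter, -0.039 with 100 counts in every library, -0.071 with all 5 groups in the fit, -0.0018 with the replicate block and a range of -0.072 to 0.11 with 1 library left out.

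Sign changes against the summed exon offset were as follows, those with the principal transcript chosen after seeing the data. PSMD2 went from 0.14 to a range of -0.018 to 0.49 with 1 library left out. HUWE1 went from -0.32 to 0.16 with both lengths. CHD4 went from -0.40 to 0.18 with both lengths. HOXB2 went from 0.084 to -0.16 with the longest transcript, -0.091 over protein-coding genes only, -0.068 with the transcript offset, -0.27 with both lengths and -0.064 with the transcript offset and replicate block. POLR2B went from 0.044 to -0.037 with exon length and GC offsets, -0.036 with these and the replicate block and a range of -0.027 to 0.12 with 1 library left out. ITGB5 went from -0.053 to 0.088 with the transcript offset, 0.19 with both lengths, 0.11 with the transcript offset and replicate block, 0.076 with the transcript and GC offsets and a range of -0.26 to 0.11 with 1 library left out. DYNC1H1 went from -0.033 to 0.016 with a span of 0.6, 0.093 with the longest transcript, 0.10 with the transcript offset, 0.48 with both lengths, 0.085 with the transcript offset and replicate block, 0.045 with the transcript and GC offsets and a range of -0.090 to 0.037 with 1 library left out. ZNF704 went from -0.12 to 0.0066 with the transcript offset and replicate block. AHNAK went from 0.10 to -1.61 with the transcript offset, -2.14 with both lengths, -1.63 with the transcript offset and replicate block and -1.45 with the transcript and GC offsets. AHNAK2 went from -0.22 to 0.23 with both lengths. MAP1A went from -0.63 to a range of -0.91 to 0.11 with 1 library left out. RPL39 went from 1.30 to -0.53 with both lengths. The offset that sets AHNAK apart rests on its short annotated principal transcript. For the others the cause was not tested. Counts per gene do not say which isoform was in a pellet, which limits every length offset.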
